A study of Arabidopsis thaliana with 24 samples.

Results

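Transcript levels were compared between pnp1-1 and wild-type (WT) Arabidopsis thaliana seedlings kept on phosphate-containing medium (+P) for 3 h after transfer. The comparison takes the 6 of the study's 24 arrays whose labels give this medium and time, 3 of pnp1-1 and 3 of WT. The pnp1-1 plants carry the insertion SALK_013306 in the gene PNP1, and the WT plants are Col0, the same Columbia background, so each result rests on 1 mutant allele. Both genotypes grew for 2 weeks on full nutrient MS medium with 0.5% sucrose at 22 °C and a 16 h photoperiod, were rinsed in distilled water, and spent 3 h on fresh medium of the same kind. Neither group was deprived of phosphate. Each array held labelled RNA of 1 biological replicate of at least 4 pooled seedlings without roots. The study's other 18 arrays hold the same genotypes on medium without phosphate (-P) at 3 h and on both media after 1 week, and serve here as a setting for the +P difference.

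PNP1 encodes the polynucleotide phosphorylase of the chloroplast, an enzyme that degrades RNA from its 3′ end and trims the ends of plastid messenger and ribosomal RNAs. It can also run in reverse and add adenosine-rich tails, which in plastids mark RNA for decay. The plastid genome keeps genes for photosystem, cytochrome, ATP synthase and NDH subunits, the large subunit of Rubisco, ribosomal proteins and a polymerase. Most other chloroplast proteins come from nuclear genes. The comparison asks which transcripts differ between the genotypes when phosphate is plentiful.

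Each value is a linear intensity of 1 probe set, which is a group of short probes for 1 transcript. Differences are pnp1-1 minus WT on the log2 scale with the standard error (SE) of a limma model, and group means are geometric means. A probe set was called at a Benjamini-Hochberg adjusted p under 0.05 over all 22746 probe sets tested. About 40.4% to 41.3% of probe sets on the 6 arrays lay under an intensity of 16, where values have no dependable order. The leaf genes RCA, for Rubisco activase, and HPR, for peroxisomal hydroxypyruvate reductase, were bright in both groups, RCA at 23207 to 28463 and HPR at 6639 to 10918. Both measured root markers, the root hair expansins EXPA7 and EXPA18, lay between 3.4 and 3.5 on all 6 arrays. The mutated gene could not be checked, because no probe set was paired with PNP1 alone in the annotation used here. The ratio of the 3′ to the 5′ probe sets of the GAPDH control was 1.79, 2.57 and 2.72 in pnp1-1, against 2.93, 2.74 and 3.63 in WT, with no overlap. A second set of GAPDH probe sets gave 0.924, 0.905 and 0.893 in pnp1-1, against 0.846, 0.813 and 0.936 in WT, with overlap. The actin ratio was 2.92, 3.27 and 3.51 in pnp1-1, against 2.93, 3.23 and 4 in WT, with overlap. The part of these RNA measures in the results was not tested.

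Of all transcripts measured, 930 probe sets gave higher and 756 gave lower levels in pnp1-1, together 7.41% of those tested (4.09% higher and 3.32% lower). The median log2 difference was 1.09 among the rises and -1.04 among the falls. At least 2-fold changes made up 507 of the rises and 398 of the falls. All 3 arrays of one genotype lay above all 3 of the other for 900 of the called rises and 732 of the called falls, and for 20.5% of all probe sets. The count depended on single arrays: it was 1166, 1117 and 1335 without pnp1-1 replicate 1, 2 or 3, and 2172, 1224 and 694 without WT replicate 1, 2 or 3. It was 161 when the 6 arrays were fitted without the study's other 18, and 1164 when the 12 arrays at 3 h were fitted alone. With arrays centred on their median, which moved the median of all probe sets from -0.024 to -0.115, the calls split into 645 higher and 918 lower.

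The plastid genome held a larger share of calls than the nuclear genome. Of 69 probe sets for single plastid genes, 12 were higher and 10 lower, which is 31.9% against 6.28% of the 13367 probe sets for single nuclear genes. The median absolute log2 difference was 0.61 for plastid genes and 0.13 for nuclear genes. The median signed difference of the plastid genes was -0.12, and rises and falls both occurred. Bright probe sets were called more often in general, 19.7% of the 2589 brightest, and the part of brightness in the plastid share was not tested. The labelling kit copies RNA from adenosine tails, so an intensity reports the plastid RNA that the kit could copy, and total amounts of plastid RNA were not measured. Array signal also does not tell intact messages from fragments.

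Of the 12 rises, 6 were at least 4-fold. rbcL, which encodes the large subunit of the carbon-fixing enzyme Rubisco, had intensities of 17971, 17612 and 21043 in pnp1-1 and 1025, 708 and 1049 in WT. Its lowest pnp1-1 array lay far above its highest WT array, and it rose by 4.36 ± 0.33 (adjusted p = 1.78e-06). psbD, for the D2 protein of the photosystem II reaction centre, had 17619, 12721 and 8146 in pnp1-1 and 990.4, 1277 and 458 in WT. The groups did not overlap, and psbD rose by 3.87 ± 0.49 (adjusted p = 0.000168). psbC, for the CP43 inner antenna protein, gave 21868, 18342 and 17726 in pnp1-1 and 3323, 4158 and 2624 in WT, and psbZ, for a small photosystem II subunit, gave 18156, 16909 and 18144 in pnp1-1 and 5521, 7211 and 7909 in WT. psbC rose by 2.54 ± 0.22 (adjusted p = 7.08e-06) and psbZ rose by 1.38 ± 0.15 (adjusted p = 7.33e-05), each without overlap. These 3 genes lie side by side in the plastid gene order used here. The next gene, rps14 for a small-subunit ribosomal protein, was dim in both groups at 9.4, 20.3 and 14.6 in pnp1-1 and 8.5, 8.8 and 8.5 in WT, and its difference of 0.71 ± 0.28 was not called (adjusted p = 0.141) and was 0.11 with levels under 16 set to 16.

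Low WT levels were found for petD and rpl20. petD, for subunit IV of the cytochrome b6f complex, had 185, 262 and 69.2 in pnp1-1 and 4.8, 4.8 and 7.3 in WT. All WT values lay under 16, so the rise is given as at least 9.36-fold against that level (adjusted p = 5.44e-07). petB, for cytochrome b6 and the measured gene just before petD, was bright in both groups, with 11189, 10799.7 and 11064 in pnp1-1 and 10018, 11109 and 10544 in WT, and its difference of 0.06 ± 0.10 was not called (adjusted p = 0.916). rpl20, for a large-subunit ribosomal protein, had 1278, 640.5 and 1418 in pnp1-1 and 14.4, 24.6 and 92.1 in WT. It rose by 5.04 ± 0.59 (adjusted p = 0.000101), with the WT arrays spread over more than 2 log2 units and still all below the pnp1-1 arrays. Its neighbours rpl33 and rps18, also for ribosomal proteins, rose less. rps18 had 2040.0, 2372 and 3324 in pnp1-1 and 704, 922 and 1474 in WT and rose by 1.36 ± 0.30 (adjusted p = 0.0105). rpl33 rose by 0.86 ± 0.20 (adjusted p = 0.0132).

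Among the remaining rises, rps16 rose by 2.13 ± 0.41 (adjusted p = 0.00449), with 324, 485 and 324 in pnp1-1 and 49.6, 85.2 and 144 in WT. petG, for a small cytochrome b6f subunit, rose by 1.84 ± 0.37 (adjusted p = 0.00601), and its WT arrays covered 67.6 to 215. Both were higher in every pnp1-1 array than in any WT array. petN, for another small cytochrome b6f subunit, rose by 0.93 ± 0.22 (adjusted p = 0.0169), missing the threshold without pnp1-1 replicate 1 or 2 or WT replicate 3 (adjusted p up to 0.0846). rpl22 rose by 0.61 ± 0.18 (adjusted p = 0.0477), missing the threshold without pnp1-1 replicate 1, 2 or 3 or WT replicate 1 or 3 (adjusted p up to 0.166). The other 10 rises stayed called whichever 1 array was left out. Of all 12 plastid rises, 3 were called with the 6 arrays fitted alone and 8 with the 12 arrays at 3 h.

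Falls were smaller than the leading rises. The 4 consecutive genes psbJ, psbL, psbF and psbE, which encode small subunits of photosystem II and form 1 transcription unit in land plants, were all lower. psbE and psbF encode the subunits of cytochrome b559. psbE had 2436, 1606 and 2179 in pnp1-1 and 4196, 5183 and 5257 in WT and fell by 1.25 ± 0.18 (adjusted p = 0.000497). psbJ had 2269, 1946 and 2542 in pnp1-1 and 4632, 5986 and 6557 in WT and fell by 1.34 ± 0.15 (adjusted p = 7.61e-05). psbL fell by 1.08 ± 0.16 (adjusted p = 0.000678) and psbF fell by 0.82 ± 0.11 (adjusted p = 0.000433). None of the 4 overlapped between groups, and all 4 calls held with any 1 array left out. All 4 missed the threshold with the 6 arrays fitted alone (adjusted p from 0.0608 for psbJ to 0.0758 for psbE). Of the 10 plastid falls, that fit called 0, and the 12 arrays at 3 h fitted alone called 6.

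The largest falls were in ndhJ, atpA and ccsA. ndhJ, for a subunit of the plastid NDH complex that feeds electrons back into the photosynthetic chain, had 208, 185 and 62.2 in pnp1-1 and 670.1, 433 and 637 in WT and fell by 2.09 ± 0.51 (adjusted p = 0.0174), missing the threshold without pnp1-1 replicate 3 or WT replicate 3 (adjusted p up to 0.0826). atpA, for the alpha subunit of the ATP synthase, had 1813, 1683 and 662 in pnp1-1 and 5514, 5385 and 4342 in WT and fell by 2.00 ± 0.37 (adjusted p = 0.00308). ccsA, which acts in attaching haem to cytochromes of the c type, had 693, 1740.3 and 1002 in pnp1-1 and 2927, 3207 and 4400.2 in WT and fell by 1.70 ± 0.41 (adjusted p = 0.0166), missing the threshold without pnp1-1 replicate 1 or WT replicate 3 (adjusted p up to 0.0881). In all 3 genes pnp1-1 values varied more than WT values on the log2 scale, and the groups stayed apart. psaB, for a core protein of photosystem I, fell by 0.72 ± 0.20 (adjusted p = 0.0405), missing the threshold without pnp1-1 replicate 2 or 3 or WT replicate 1, 2 or 3 (adjusted p up to 0.179). ndhC fell by 0.51 ± 0.15 (adjusted p = 0.0446), missing the threshold without pnp1-1 replicate 1 or 2 or WT replicate 2 or 3 (adjusted p up to 0.214). atpE, for the epsilon subunit of the ATP synthase, fell by 0.30 ± 0.06 (adjusted p = 0.00833), and it was among the brightest plastid genes, with 22226, 20679.6 and 19317 in pnp1-1 and 24609, 26049 and 25887 in WT.

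**Figure D1:**
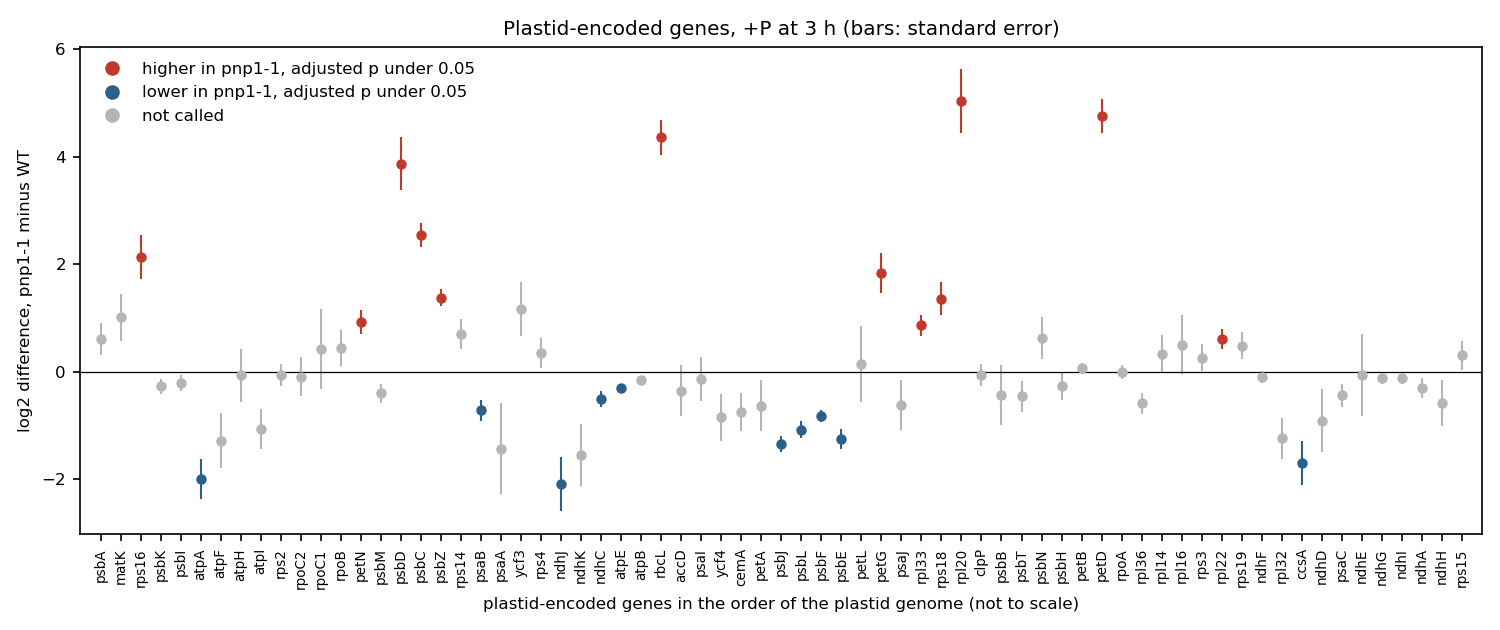
Log2 difference (pnp1-1 minus WT) of the 69 plastid-encoded genes on +P at 3 h, 1 point per gene with its SE, in genome order without distances. Rises such as psbD, psbC and psbZ, or rpl33, rps18 and rpl20, and falls such as psbJ, psbL, psbF and psbE, stand next to each other.

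By role, ribosomal protein genes had 5 rises and 0 falls among 15 measured, with a median of 0.48. Photosystem II genes had 3 rises and 4 falls among 15, with a median of -0.27. Cytochrome b6f genes taken with ccsA had 3 rises and 1 fall among 7. The 6 ATP synthase genes had 2 falls, and all 6 differences were below 0, from -2.00 to -0.07. Of the 10 NDH genes 2 fell, ndhF and ndhG lay under 16 on all arrays, and the 8 others had differences below 0, from -2.09 to -0.06. The 7 genes of photosystem I and its assembly had 1 fall, and the 4 RNA polymerase genes had 0 calls, with differences of -0.09 for rpoC2, 0.42 for rpoC1 and -0.01 for rpoA, while rpoB was dim in both groups (0.12 with levels under 16 set to 16). Of these rpoA gave 8736, 9569.5 and 9987 in pnp1-1 and 8089.9, 10293 and 10230.4 in WT. Of the 22 called genes, 12 had a neighbour among the measured plastid genes called in the same direction. How many would have one from the number of calls alone was not worked out.

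The 22 plastid calls can be read against the 3 other genotype comparisons, which use other arrays. All 4 comparisons share 1 estimate of the spread for each probe set, so a small spread favours a call in each of them. Of the 12 genes higher here, 12 were also called higher on -P at 3 h, 11 on +P at 1 week and 12 on -P at 1 week, where 2.51%, 3.33% and 1.1% of all probe sets were called higher. Of the 10 genes lower here, 6, 8 and 5 were called lower in those comparisons, against 1.74%, 4.01% and 0.545% of all probe sets. Over both directions those comparisons called 4.26%, 7.35% and 1.64%. The sign was the same in all 4 comparisons for 21 of the 22, and psaB was the exception at 0.07 on -P at 1 week. rbcL differed by 4.27, 3.92 and 4.27 in those 3 comparisons, close to its 4.36 here. At 3 h same-numbered +P and -P arrays of a genotype deviated from their group means together, so the -P arrays of that time are not fully separate evidence.

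**Figure D2:**
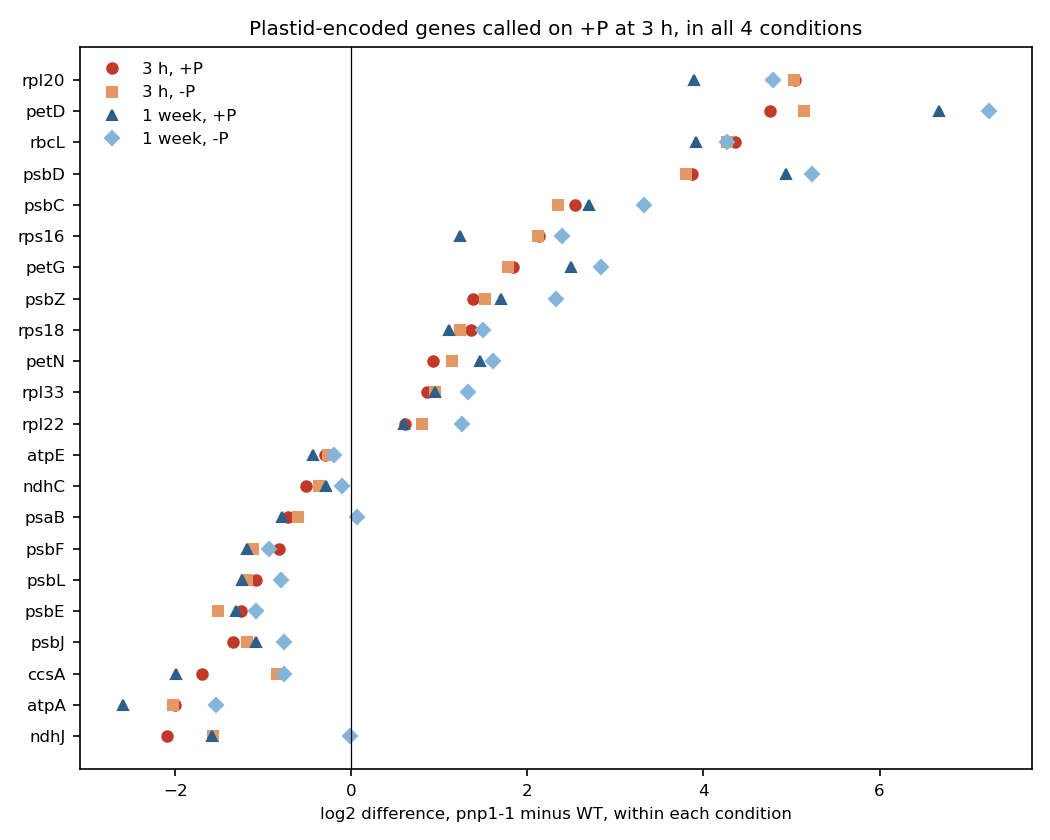
Log2 difference (pnp1-1 minus WT) of the 22 plastid-encoded genes called on +P at 3 h, with 1 marker for each of the 4 combinations of time and medium. Markers of 1 gene lie on the same side of 0, except psaB on -P at 1 week at 0.07.

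The mitochondrial genome gave no call. Its 23 probe sets name 16 genes, and 17 of the 23 had both group means under 16. limma called 0 of 23 in the fit over all arrays, and 3 had an unadjusted p under 0.05. ccb382, which takes part in cytochrome c assembly, had the highest difference, with 202, 222 and 80.7 in pnp1-1 and 81.5, 68.3 and 87.9 in WT. Its pnp1-1 replicates 1 and 2 lay above all WT arrays and replicate 3 did not, and the difference of 0.96 ± 0.38 was not called (adjusted p = 0.15). cox1, for a subunit of cytochrome oxidase, differed by 0.38 ± 0.33 (adjusted p = 0.662).

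Among single nuclear genes, 421 probe sets were higher and 419 lower. Most lead genes carry only a locus code in the annotation. The 12 largest rises with both group means of at least 16 and no overlap ran from 3.54 to 4.64. MSRB9, a methionine sulfoxide reductase that repairs oxidised methionine in proteins, led them with 430.5, 1672 and 587 in pnp1-1 and 28.2, 118 and 8.2 in WT. It rose by 4.64 ± 0.99 (adjusted p = 0.00846), missing the threshold without WT replicate 3 (adjusted p = 0.0602). With levels under 16 set to 16 the difference was 4.32. AT2G21640, one of the listed genes that respond to mitochondrial dysfunction, had 777, 1757 and 1092 in pnp1-1 and 63.2, 67.9 and 53.5 in WT. All 3 WT arrays were close together and far below pnp1-1, and AT2G21640 rose by 4.22 ± 0.40 (adjusted p = 1.65e-05).

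UGT76E12, a UDP-glycosyltransferase that joins sugars to small molecules, had 94.0, 326 and 489.5 in pnp1-1 and 16.8, 19.7 and 14.7 in WT and rose by 3.86 ± 0.76 (adjusted p = 0.00493). JRG21, named as a jasmonate-regulated gene, had 122, 2492 and 452 in pnp1-1 and 33.3, 85.2 and 26.0 in WT. Replicate 2 of pnp1-1 stood far above both other pnp1-1 arrays. JRG21 rose by 3.62 ± 1.01 (adjusted p = 0.0366), missing the threshold without pnp1-1 replicate 2 or 3 or WT replicate 1 or 3 (adjusted p up to 0.174). The other 8 are known here by locus alone. AT4G22470 gave 1818, 3526 and 1672 in pnp1-1 and 96.0, 286 and 36.4 in WT and rose by 4.46 ± 0.87 (adjusted p = 0.0047), and AT1G52100 gave 576, 1391 and 981 in pnp1-1 and 51.1, 64.5 and 41.7 in WT and rose by 4.16 ± 0.44 (adjusted p = 4.46e-05). AT3G20370, AT4G12490, AT5G09570, AT5G01740 and AT5G11410 rose by 4.06, 3.96, 3.88, 3.59 and 3.54. AT3G46280 rose by 4.3 ± 1.2 (adjusted p = 0.036), missing the threshold without pnp1-1 replicate 1, 2 or 3 or WT replicate 3 (adjusted p up to 0.2). Of the 12 rises, 9 stayed called whichever 1 array was left out. On -P at 3 h 7 of them were also called higher, against 2.51% of all probe sets.

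The 12 largest falls ran from -4.89 to -2.53. AT4G12980 led them, with 27.5, 26.1 and 16.1 in pnp1-1 and 386, 664 and 1172 in WT. Every pnp1-1 array was near background while WT was bright, and AT4G12980 fell by 4.89 ± 0.83 (adjusted p = 0.00192). SWEET4, a sugar transporter of the plasma membrane, had 49.9, 94.0 and 77.2 in pnp1-1 and 600.1, 414 and 319.9 in WT and fell by 2.59 ± 0.52 (adjusted p = 0.00568). Its highest pnp1-1 array stayed well below its lowest WT array. AT5G03350 had 13.0, 27.0 and 23.1 in pnp1-1 and 64.1, 494 and 688 in WT. WT replicate 1 was the lowest WT array and still above all pnp1-1 arrays. AT5G03350 fell by 3.80 ± 0.86 (adjusted p = 0.0121), missing the threshold without WT replicate 2 or 3 (adjusted p up to 0.08). AT1G06830, with 22.2, 81.3 and 84.9 in pnp1-1 and 928, 726 and 513 in WT, fell by 3.71 ± 0.71 (adjusted p = 0.00416). AT2G39850, with 79.2, 72.8 and 92.0 in pnp1-1 and 498, 390.5 and 530.5 in WT, fell by 2.53 ± 0.46 (adjusted p = 0.00291), and was called in the 6 arrays alone as well (adjusted p = 0.0183). AT1G64360, AT4G02850 and AT3G23080 fell by 3.79, 3.33 and 2.54.

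AT1G76960 had 7.0, 221 and 16.6 in pnp1-1 and 411, 368 and 652 in WT. Replicate 2 of pnp1-1 was far above the other pnp1-1 arrays, and AT1G76960 fell by 3.97 ± 0.95 (adjusted p = 0.0157), missing the threshold without pnp1-1 replicate 1 or 3 or WT replicate 3 (adjusted p up to 0.0816). AT5G59130 fell by 2.96 ± 0.65 (adjusted p = 0.00989), missing the threshold without WT replicate 3 (adjusted p = 0.052). AT1G20030 fell by 2.93 ± 0.69 (adjusted p = 0.0152), missing the threshold without pnp1-1 replicate 3 or WT replicate 3 (adjusted p up to 0.0686). AT5G45650 fell by 2.63 ± 0.75 (adjusted p = 0.0405), missing the threshold without pnp1-1 replicate 2 or 3 or WT replicate 2 or 3 (adjusted p up to 0.193). Of the 12 falls, 7 stayed called whichever 1 array was left out. On -P at 3 h 7 of the 12 were also called lower, against 1.74% of all probe sets.

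**Figure D3:**
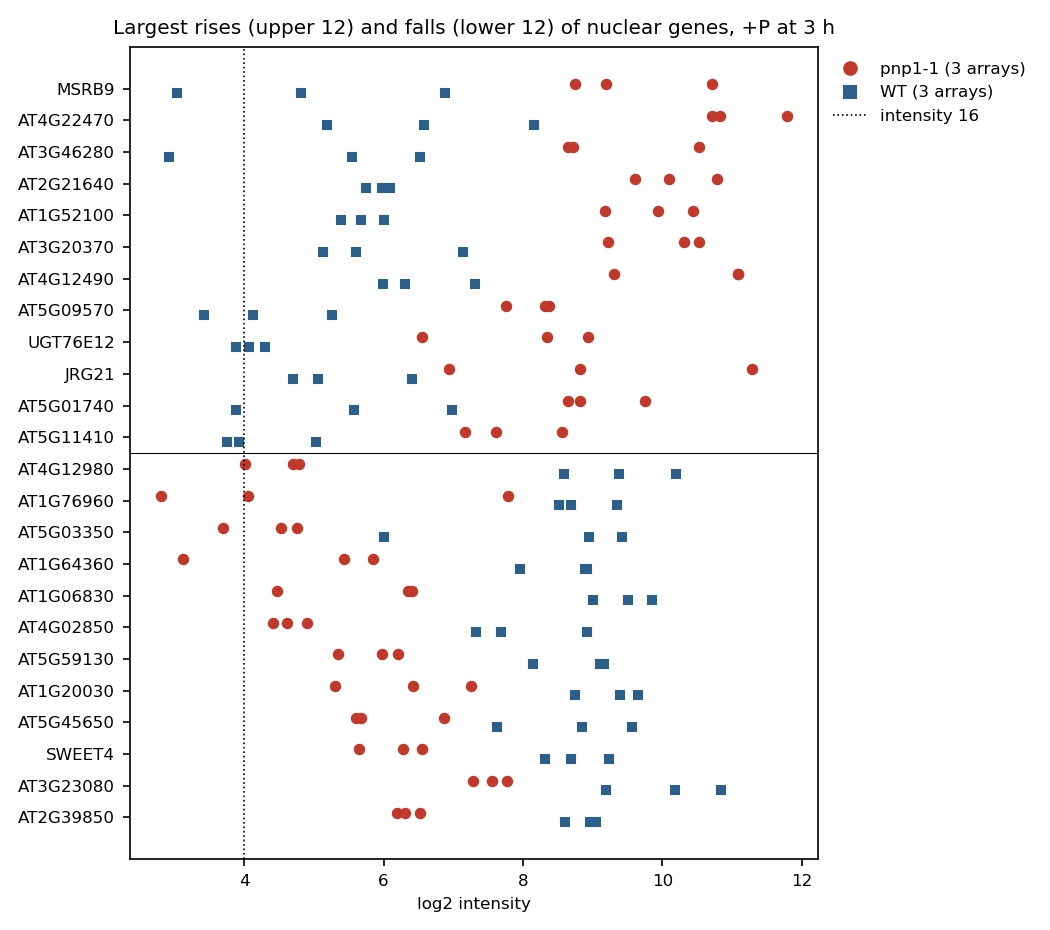
Log2 intensity of the 12 largest rises and 12 largest falls of single nuclear genes on each of the 3 pnp1-1 arrays and 3 WT arrays, with a dotted line at an intensity of 16. The groups do not overlap for any of the 24, which is how they were chosen, and JRG21 and AT1G76960 have 1 pnp1-1 array far from the other 2.

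Some genes were at background in one genotype. There were 13 nuclear genes with all 3 WT values under 16 and a pnp1-1 mean of at least 64, and 7 with the reverse. AT5G60250 had 265, 169 and 204 in pnp1-1 and 9.2, 6.2 and 6.5 in WT, at least 13.0-fold higher in pnp1-1 (adjusted p = 5.36e-05). CML41, a calmodulin-like calcium sensor, had 102, 131 and 312 in pnp1-1 and 5.9, 4.7 and 4.5 in WT, at least 10.1-fold higher (adjusted p = 0.00288). GAT1_2.1, a glutamine amidotransferase-like protein, had 189, 437 and 59.2 in pnp1-1 and 4.5, 5.7 and 6.1 in WT, at least 10.6-fold higher (adjusted p = 0.00328), and its dimmer probe set differed by 2.83 on the log2 scale. In all 3 genes every WT array was at background. AT1G30700, AT5G26270 and AT4G16260 were at least 8.77, 8.24 and 7.53-fold higher, the call of AT1G30700 being lost without pnp1-1 replicate 2 (adjusted p = 0.0701).

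In the other direction, AT1G13650 had 7.0, 7.2 and 7.0 in pnp1-1 and 319, 478 and 1216 in WT, at least 35.6-fold lower in pnp1-1 (adjusted p = 0.00245). AT2G47880 had 4.3, 4.3 and 4.3 in pnp1-1 and 193, 281 and 398 in WT, at least 17-fold lower (adjusted p = 0.000101). AT1G22160 had 6.0, 8.3 and 5.9 in pnp1-1 and 123, 159 and 168 in WT, at least 9.29-fold lower (adjusted p = 0.00111). All 9 pnp1-1 values of these 3 genes were at background. AT4G13800, AT3G17640 and AT2G32160 were at least 8.06, 5.19 and 5.17-fold lower. All 6 falls were also called lower on -P at 3 h, where 1.74% of all probe sets were called lower. Of the 6 rises from background named above, 3 were also called higher there, against 2.51% of all probe sets.

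Genes with a symbol allow a closer reading, so the 16 largest rises and 16 largest falls among them were taken as well, by a rule set after the values were seen. As above, only called genes with both group means of at least 16 and no overlap between groups could enter. DI21, named for induction by drought, had 1149, 1904 and 1301 in pnp1-1 and 199, 239.6 and 319 in WT and rose by 2.52 ± 0.27 (adjusted p = 6.02e-05). PPDK, which makes phosphoenolpyruvate from pyruvate, had 1607, 2376 and 808 in pnp1-1 and 176, 324 and 349 in WT and rose by 2.43 ± 0.54 (adjusted p = 0.011), missing the threshold without pnp1-1 replicate 2 (adjusted p = 0.0546). Both were higher in every pnp1-1 array. LPR1, an iron-oxidising enzyme known for its role in how roots sense low phosphate, had 273, 40.3 and 146 in pnp1-1 and 29.7, 15.1 and 25 in WT and rose by 2.39 ± 0.48 (adjusted p = 0.00596). Its pnp1-1 replicate 2 was the closest to WT. XTH18, which remodels xyloglucan in cell walls, rose by 3.00 ± 0.64 (adjusted p = 0.00862), missing the threshold without WT replicate 3 (adjusted p = 0.0572). GID1B, a gibberellin receptor, rose by 2.05 ± 0.47 (adjusted p = 0.0122), missing the threshold without WT replicate 3 (adjusted p = 0.0835). PDF1.4, a plant defensin, rose by 3.47 ± 0.91 (adjusted p = 0.0262), missing the threshold without pnp1-1 replicate 2 or WT replicate 2 or 3 (adjusted p up to 0.147). CXE18, a carboxylesterase, rose by 2.04 ± 0.44 (adjusted p = 0.00858). TBL37 had 640.3, 1283 and 1393 in pnp1-1 and 546, 146 and 73.9 in WT, so WT replicate 1 came close to the lowest pnp1-1 array. TBL37 rose by 2.53 ± 0.65 (adjusted p = 0.0233), missing the threshold without pnp1-1 replicate 2 or 3 or WT replicate 2 or 3 (adjusted p up to 0.146). PGM, a phosphoglycerate mutase-like gene, rose by 2.15 ± 0.51 (adjusted p = 0.0156), missing the threshold without pnp1-1 replicate 2 or WT replicate 2 or 3 (adjusted p up to 0.0766).

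Among the falls with a symbol, SNZ, an AP2-type factor known to delay flowering, had 28.1, 12.8 and 15.8 in pnp1-1 and 90.7, 59.5 and 83.2 in WT and fell by 2.1 ± 0.31 (adjusted p = 0.000649). scpl20, a serine carboxypeptidase-like gene, had 43.1, 40.2 and 41.3 in pnp1-1 and 143, 108 and 168 in WT and fell by 1.73 ± 0.35 (adjusted p = 0.00637). In both, the pnp1-1 values were the lower ones without overlap. PORB, which makes chlorophyllide in the light, had 3457, 2918 and 2976 in pnp1-1 and 5052, 8273 and 10095 in WT and fell by 1.27 ± 0.33 (adjusted p = 0.0237), missing the threshold without pnp1-1 replicate 2 or 3 or WT replicate 2 or 3 (adjusted p up to 0.132). PORB was lowest in WT replicate 1, which was still above all pnp1-1 arrays. PUB26, a ubiquitin ligase, fell by 1.92 ± 0.52 (adjusted p = 0.0331), missing the threshold without pnp1-1 replicate 1, 2 or 3 or WT replicate 2 or 3 (adjusted p up to 0.142). HAT2, a homeodomain factor induced by auxin, fell by 1.75 ± 0.46 (adjusted p = 0.027), missing the threshold without pnp1-1 replicate 2 or 3 or WT replicate 1, 2 or 3 (adjusted p up to 0.104). Neither of these 2 calls held with every array left out in turn. APS3, an ATP sulfurylase of sulfate assimilation, fell by 1.32 ± 0.37 (adjusted p = 0.0365), missing the threshold without pnp1-1 replicate 1 or 2 or WT replicate 2 or 3 (adjusted p up to 0.152). CHX20, a cation exchanger of guard cells, fell by 1.23 ± 0.32 (adjusted p = 0.0268), missing the threshold without pnp1-1 replicate 1 or WT replicate 1 or 3 (adjusted p up to 0.132). FOLB1 of folate synthesis, the cytochrome P450 gene CYP71B28, the chromatin remodelling gene CHR23 and GLC fell by 1.23, 1.4, 1.18 and 1.83. The call of FOLB1 was lost without pnp1-1 replicate 1 or 2 or WT replicate 3 (adjusted p up to 0.0845), that of CYP71B28 was lost without WT replicate 3 (adjusted p = 0.0634), that of CHR23 was lost without pnp1-1 replicate 3 or WT replicate 1 or 3 (adjusted p up to 0.158) and that of GLC was lost without pnp1-1 replicate 1 or 2 or WT replicate 2 or 3 (adjusted p up to 0.127). The second probe set of GLC differed by -0.43. Of the 16 rises and 16 falls, 7 and 5 stayed called whichever 1 array was left out.

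The gene lists drawn up for the study, with earlier results of these data known, were thinly covered, since 51 of their 369 genes had a probe set of their own name. Of the 48 measured members outside the tissue marker lists, 3 were higher and 7 lower, 20.8% against 7.41% of all probe sets. Nuclear-encoded photosystem and electron transport subunits had 0 rises and 4 falls among 5, with a median of -0.68, against -0.024 over all probe sets. All 5 were bright genes. Bright probe sets were called more often in general, 19.7% of the 2589 brightest, and the part of brightness in these counts was not tested. PSAE-1, a photosystem I subunit beside the ferredoxin docking site, had 10993, 15576 and 14153 in pnp1-1 and 22771, 21612 and 22175 in WT and fell by 0.72 ± 0.14 (adjusted p = 0.0039). PSAN, a luminal photosystem I subunit, had 5805, 10798 and 6710.3 in pnp1-1 and 14733, 12814 and 15452 in WT and fell by 0.93 ± 0.22 (adjusted p = 0.0141), missing the threshold without pnp1-1 replicate 1 or 3 or WT replicate 3 (adjusted p up to 0.0723). PSBW, a small photosystem II subunit, fell by 0.65 ± 0.13 (adjusted p = 0.0051). ATPC1, for the gamma subunit of the ATP synthase, fell by 0.42 ± 0.10 (adjusted p = 0.0136), missing the threshold without pnp1-1 replicate 2 or WT replicate 3 (adjusted p up to 0.0727). The falls were modest, and in each gene all pnp1-1 arrays lay below all WT arrays. PSBY differed by -0.68 ± 0.22 and was not called (adjusted p = 0.0759). In whole shoots, fewer cells of a type and less RNA per cell cannot be told apart.

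Of 3 light-harvesting antenna genes, LHCB4.1 fell by 0.45 ± 0.11 (adjusted p = 0.017), missing the threshold without pnp1-1 replicate 1 or 3 or WT replicate 3 (adjusted p up to 0.0816). LHCB4.2 differed by -1.48 ± 0.55 (adjusted p = 0.122). PORB was the 1 called member among 4 chlorophyll synthesis genes, with a list median of -0.58. None of the 3 Calvin cycle genes RCA, PRK and SBPASE was called, at -0.10 ± 0.17, -0.42 ± 0.29 and -0.51 ± 0.31. Of 3 mitochondrial dysfunction genes, 2 rose. One was AT2G21640. The other, NDB4, an alternative NADH dehydrogenase of mitochondria, was at 26.2, 39.0 and 10.7 in pnp1-1 and at 3 on all WT arrays, a rise of at least 1.39-fold against 16 (adjusted p = 0.00074). NDB2 gave 206, 377 and 196 in pnp1-1 and 288, 80.6 and 55.4 in WT and was not called (adjusted p = 0.219).

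WRKY6, a transcription factor of senescence and stress responses, had 427, 442 and 251 in pnp1-1 and 109, 118 and 72.8 in WT and rose by 1.89 ± 0.48 (adjusted p = 0.0212), missing the threshold without pnp1-1 replicate 1 or 2 or WT replicate 3 (adjusted p up to 0.108). It was the 1 called member of 3 transcription factors that respond to oxidative stress. TAPX, the thylakoid ascorbate peroxidase, fell by 0.88 ± 0.21 (adjusted p = 0.0167), missing the threshold without pnp1-1 replicate 1 or 2 or WT replicate 3 (adjusted p up to 0.102), and was the 1 called member of 3 antioxidant genes. The 4 cold and dehydration genes held no call. COR15B, which protects chloroplast membranes in freezing, had 162, 925 and 976 in pnp1-1 and 7208, 4561 and 5162 in WT and did not pass at -3.40 ± 1.33 (adjusted p = 0.144). COR15A had 895, 4611 and 2768 in pnp1-1 and 10371, 10006 and 7249.7 in WT and did not pass at -2.01 ± 0.90 (adjusted p = 0.21). In both genes every pnp1-1 array was below every WT array, and groups were apart in either direction for 20.5% of all probe sets. The other members, COR47 and LTI30, differed by 0.20 ± 0.35 and 0.61 ± 0.99 (adjusted p = 0.919 and 0.917), and their groups overlapped. limma called 0 of the measured members of the lists for plastid RNA metabolism (3), flavonoids and anthocyanins (4), salicylic acid (2), jasmonate (3), glucosinolates (3), heat shock (2), sugar status (1), the clock (1) and senescence (1). Over all lists without a call, 6 of 27 members had an unadjusted p under 0.05. The lists for phosphate starvation, nitrogen, plastid proteases and floral markers had no measured member.

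Symbols also gather into families, chosen here after the values were seen, so their counts only describe. The part of brightness in the family counts was not tested. Among 9 nuclear-encoded genes of the plastid NDH complex and its accessory factors, 5 were lower and 0 higher, with a median of -0.94. That is 55.6% called, against 7.41% of all probe sets. NdhS, which binds ferredoxin for the complex, had 920.2, 1591 and 1202 in pnp1-1 and 3017, 2805 and 3626 in WT and fell by 1.37 ± 0.26 (adjusted p = 0.00374). NdhN fell by 1.38 ± 0.33 (adjusted p = 0.0156), missing the threshold without pnp1-1 replicate 1 or WT replicate 3 (adjusted p up to 0.0781), and NdhL fell by 1.1 ± 0.32 (adjusted p = 0.0441), missing the threshold without pnp1-1 replicate 1 or 2 or WT replicate 2 or 3 (adjusted p up to 0.205). PIFI and CRR41 fell by 0.84 and 0.94, and both calls were lost without pnp1-1 replicate 1 or 2 or WT replicate 2 or 3 (adjusted p up to 0.128 and 0.113). The RNA editing factors CRR21, CRR22 and CRR28 did not pass, at -0.26 ± 0.19, 0.10 ± 0.27 and -0.27 ± 0.30. The 10 plastid-encoded NDH genes, described above, had 2 calls, both falls.

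Plastid thioredoxins and peroxide-removing enzymes had 5 falls among 7, which is 71.4% called against 7.41% of all probe sets. TRXF2, a thioredoxin that activates Calvin cycle enzymes in the light, had 676, 758 and 660.4 in pnp1-1 and 1763, 1997 and 2610.1 in WT and fell by 1.59 ± 0.31 (adjusted p = 0.00505). NTRC, an NADPH-dependent thioredoxin reductase, fell by 0.56 ± 0.16 (adjusted p = 0.0397), missing the threshold without pnp1-1 replicate 2 or 3 or WT replicate 2 or 3 (adjusted p up to 0.196). SRX, the sulfiredoxin that restores overoxidised peroxiredoxin, fell by 1.01 ± 0.28 (adjusted p = 0.0355), missing the threshold without pnp1-1 replicate 1 or 2 or WT replicate 1 or 3 (adjusted p up to 0.171). THX fell by 0.67 ± 0.15 (adjusted p = 0.0105), missing the threshold without pnp1-1 replicate 1 or WT replicate 3 (adjusted p up to 0.0543). SAPX, the stromal ascorbate peroxidase, differed by 0.89 ± 0.36 (adjusted p = 0.159), and its groups overlapped.

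Enzymes of the tricarboxylic acid cycle with other isocitrate dehydrogenases and ATP-citrate lyase had 7 rises and 0 falls among 14, with a median of 0.69. Over all probe sets 7.41% were called, 4.09% higher and 3.32% lower. SDH1-1 and SDH2-1, subunits of succinate dehydrogenase, had 1239, 1250.1 and 1364 in pnp1-1 and 858, 622 and 561 in WT for SDH1-1 and 979, 1453 and 1340.0 in pnp1-1 and 751, 515 and 772 in WT for SDH2-1. SDH1-1 rose by 0.94 ± 0.18 (adjusted p = 0.00474) and SDH2-1 rose by 0.89 ± 0.17 (adjusted p = 0.00411), without overlap. ICDH and cICDH, both NADP-dependent isocitrate dehydrogenases, rose by 1.06 ± 0.21 (adjusted p = 0.0059) and 0.86 ± 0.17 (adjusted p = 0.00481). IDH-V, SDH2-2 and ACLA-3 rose by 0.90, 0.68 and 0.99, with smaller margins. The call of IDH-V was lost without WT replicate 2 or 3 (adjusted p up to 0.095), that of SDH2-2 was lost without pnp1-1 replicate 2 or 3 or WT replicate 2 or 3 (adjusted p up to 0.188) and that of ACLA-3 was lost without pnp1-1 replicate 1 or 2 or WT replicate 2 or 3 (adjusted p up to 0.125). The groups of SDH2-2 and of ACLA-3 overlapped.

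Proteins of the endoplasmic reticulum body, a store of beta-glucosidase that meets its substrates when a cell is damaged, had 4 rises among 7 together with jacalin-related lectins. That is 57.1% called, against 7.41% of all probe sets. PYK10, the stored beta-glucosidase, had 3372, 7703 and 3976 in pnp1-1 and 1007, 1633 and 1484 in WT and rose by 1.80 ± 0.35 (adjusted p = 0.00442). JAL33, a lectin, had 712, 2206 and 566 in pnp1-1 and 104, 163 and 237 in WT and rose by 2.59 ± 0.44 (adjusted p = 0.00184). JAL34 rose by 2.02 ± 0.41 (adjusted p = 0.00617). NAI2, needed to form these bodies, had 745, 1491 and 699 in pnp1-1 and 305, 356 and 204 in WT and rose by 1.71 ± 0.41 (adjusted p = 0.0163), missing the threshold without pnp1-1 replicate 2 or WT replicate 3 (adjusted p up to 0.094). In all 4, replicate 2 was the highest pnp1-1 array, and no group overlapped.

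Of 48 UDP-glycosyltransferases 5 were higher and 0 lower, 10.4%, against 7.41% of all probe sets, and of 20 beta-glucosidases 2 were higher and 1 lower. UGT76B1, which glycosylates isoleucic acid and salicylic acid, had 32.8, 49.9 and 116 in pnp1-1 and 4.8, 8.3 and 6.7 in WT and was at least 3.6-fold higher (adjusted p = 0.0335), missing the threshold without pnp1-1 replicate 2 or 3 or WT replicate 1, 2 or 3 (adjusted p up to 0.123). UGT87A2 had 1425, 2001 and 2368 in pnp1-1 and 836, 503 and 285 in WT and rose by 1.94 ± 0.36 (adjusted p = 0.00373). The groups of both genes were apart. BGLU33 fell by 1.55 ± 0.34 (adjusted p = 0.0103), missing the threshold without pnp1-1 replicate 2 or WT replicate 3 (adjusted p up to 0.0655). Of 14 SWEET genes, SWEET4 and SWEET17 fell and 0 rose, 14.3% called against 7.41% of all probe sets. SWEET17, a fructose transporter of the vacuole membrane, had 774, 765 and 756 in pnp1-1 and 1251, 1084 and 1266 in WT and fell by 0.65 ± 0.14 (adjusted p = 0.0108), missing the threshold without WT replicate 3 (adjusted p = 0.0562). Of 7 WRKY genes, WRKY6 and WRKY47 rose and ZAP1 fell, 42.9% called against 7.41% of all probe sets. The call of WRKY47 was lost without pnp1-1 replicate 1 or 2 or WT replicate 1 or 3 (adjusted p up to 0.0868) and that of ZAP1 was lost without pnp1-1 replicate 2 or 3 or WT replicate 1 or 3 (adjusted p up to 0.184). NRPC1 and NRPC2, the largest subunits of RNA polymerase III and the only ones named, rose by 1.18 ± 0.34 and 0.88 ± 0.26, calls lost without pnp1-1 replicate 1 or 3 or WT replicate 1, 2 or 3 (adjusted p up to 0.17) for NRPC1 and lost without pnp1-1 replicate 1, 2 or 3 or WT replicate 1, 2 or 3 (adjusted p up to 0.155) for NRPC2.

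**Figure D4:**
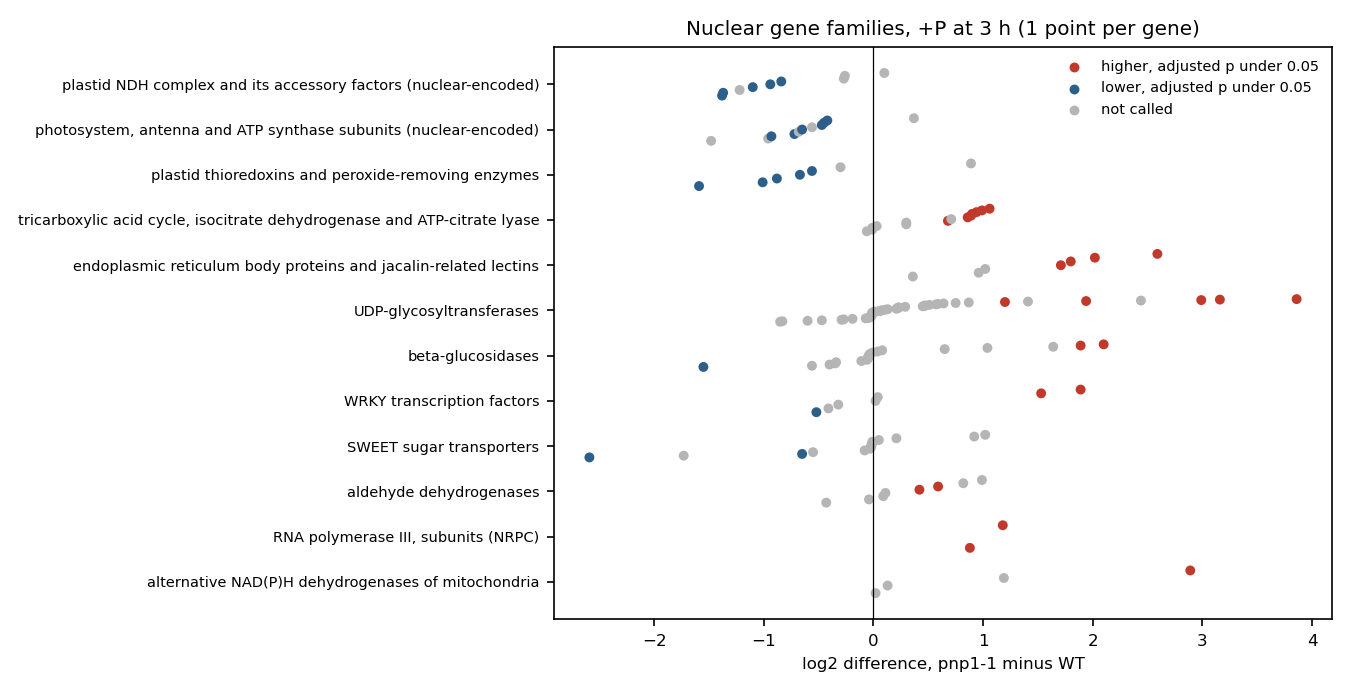
Log2 difference (pnp1-1 minus WT) of each named member of 12 nuclear gene families on +P at 3 h, 1 point per gene. Among called genes, the upper 3 families hold falls and no rises, and the tricarboxylic acid cycle and endoplasmic reticulum body rows hold rises and no falls, while members that were not called lie on both sides of 0 in several families.

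The sign of the called differences was mostly kept on the medium without phosphate. limma called 0 of 22746 probe sets for the difference between the genotype effect on +P and that on -P at 3 h, and 684 had an unadjusted p under 0.05, where 5% of those tested is 1137. That fit leaves out the pairing of same-numbered +P and -P arrays. With such pairs as a block within each genotype, an alternative chosen after seeing the data, limma also called 0, and 2279 had an unadjusted p under 0.05. Of the 930 probe sets higher on +P, 902 (97.0%) also had a positive difference on -P, with a median of 0.74. Of the 756 lower, 748 (98.9%) were negative on -P, with a median of -0.68. These probe sets were chosen by their +P difference, and the share of equal signs over all probe sets was not taken. Because same-numbered +P and -P arrays of a genotype deviated together, the -P signs are not fully separate evidence. A p that misses the threshold does not show that the media acted alike, and single genes had wide intervals. XTH18, for example, differed by 3.00 ± 0.64 on +P and by 0.33 on -P, and the gap of 2.67 ± 0.91 was not called (adjusted p = 1.0).

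**Figure D5:**
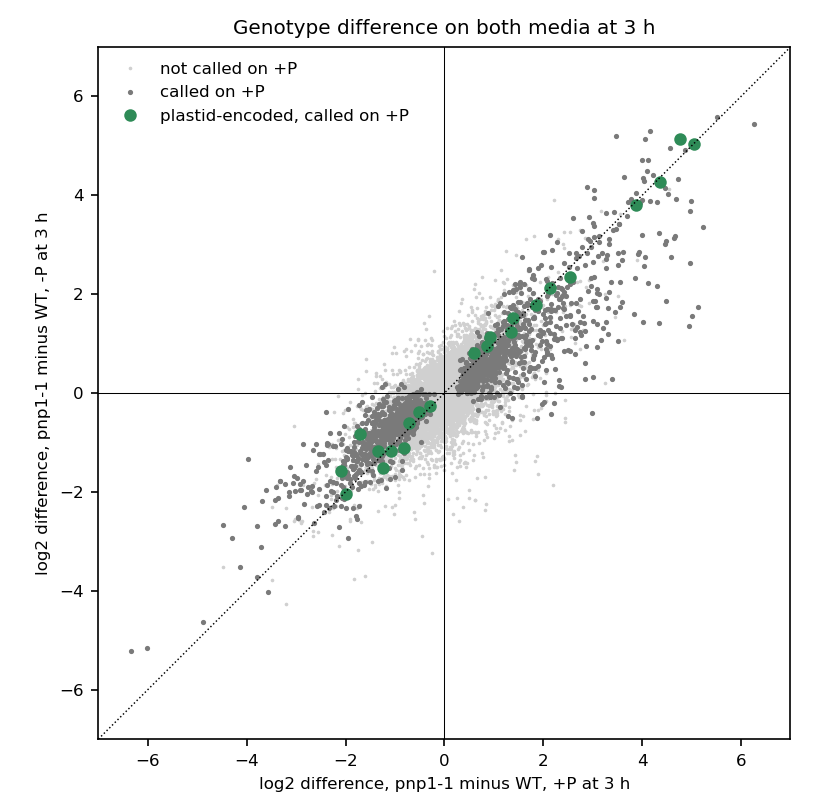
Log2 difference (pnp1-1 minus WT) on +P at 3 h against that on -P at 3 h for 22746 probe sets, with called and plastid-encoded ones marked and a dotted line of equality. Called probe sets lie in the 2 corners of equal sign, 97.0% of the rises and 98.9% of the falls.

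After 1 week on +P, the same rises had a median of 0.49 and the same falls a median of -0.62, with the sign kept in 87.8% and 91.9%. The median over all probe sets was 0.05 there, and their share of equal signs was not taken. The arrays of both times were compared only through differences taken within each time, because the 12 arrays at 3 h had mean intensities of 463 to 496 and the 12 at 1 week 582.8 to 602, and the sources used here do not say whether the times were normalized together. The genotype effect at 3 h differed from that at 1 week for 31 probe sets, 9 higher and 22 lower at 3 h (0.136% of those tested, 0.0396% higher and 0.0967% lower), a count of 14 to 109 with 1 array left out, the lowest without WT replicate 3 at 1 week and the highest without WT replicate 1 at 1 week. Leaving out WT replicate 1 or pnp1-1 replicate 2 at 3 h gave 76 and 83, and leaving out pnp1-1 replicate 1 or 3 at 3 h gave 16 and 17. Leaving out WT replicate 2, pnp1-1 replicate 1 or pnp1-1 replicate 2 at 1 week gave 17, 18 and 19. Of the 31 probe sets, 5 were also called here and 26 were not. Most of the 31 had both group means at 3 h under 16, where values have no dependable order, so their gaps have no dependable size. AT5G03350 had the widest gap, at -3.80 ± 0.86 at 3 h and 2.79 ± 0.86 at 1 week, a gap of -6.59 ± 1.22 (adjusted p = 0.0357). OPCL1, a ligase of jasmonate synthesis, had 326, 559.6 and 410.5 in pnp1-1 and 731, 569.5 and 959.9 in WT and differed by -0.81 ± 0.21 at 3 h and 1.25 ± 0.21 at 1 week, a gap of -2.06 ± 0.30 (adjusted p = 0.00554). AT1G62480 had 5126, 4571 and 5465 in pnp1-1 and 2035, 1430.0 and 999 in WT and differed by 1.82 ± 0.28 at 3 h and -0.58 ± 0.28 at 1 week, a gap of 2.4 ± 0.40 (adjusted p = 0.019). The fitted signs of these 3 genes were opposite at the 2 times. At 1 week OPCL1 was called, and AT5G03350 and AT1G62480 were not (adjusted p = 0.0587 and 0.26). The 3 h call of OPCL1 did not hold with every array left out in turn (adjusted p up to 0.15). It was also lost in the 12 arrays at 3 h fitted alone (adjusted p = 0.0951).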

How the data were processed

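RNA of pnp1-1 and WT seedlings without roots was hybridised to 24 single-channel Affymetrix ATH1 arrays, 3 in each of 8 groups. Per the labels' protocols, 1 µg of total RNA was labelled with biotin through an amplification kit. The deposited values are intensities on a linear scale, 1 per probe set and array. The submitters' processing notes name GCRMA, affy and limma, without versions or order, and whether all arrays were normalized together is not given in the sources used here.

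Here log2 was taken of the deposited intensities, and 64 control probe sets were removed from 22810. limma 3.58.1 in R 4.3.3 fitted 1 mean per group over all 24 arrays (lmFit and eBayes, 16 residual degrees of freedom), with Benjamini-Hochberg adjustment over 22746 probe sets and a threshold of 0.05. Means are geometric. The 3 arrays per group limit the precision, and no filter on low values was used. On simulated data with changed probe sets, 53% of 200 changed by 1 on the log2 scale and 88.5% of 200 changed by 2 were recovered. The changed probe sets were drawn from middle WT levels, all above 16, so recovery of dim probe sets was not tested. Simulated noise was independent between arrays, unlike that of the +P and -P arrays at 3 h.

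Of the tested probe sets, 13513 name 1 gene in the platform annotation, 503 several and 8730 none; 13436 of the single genes matched RefSeq, which gave the symbols. Genes were named by rule: the 12 largest rises and 12 largest falls among called single nuclear genes with both group means of at least 16 and no overlap, the 6 brightest in each direction with the other group wholly under 16, called organelle genes, and called list members. Where a gene has several probe sets, the brightest stands for it. The members and lists were chosen with earlier results of these data known. The genes picked for having a symbol (16 each way, with the same limits on level and overlap), and the families, were chosen after their values were seen. The test planned for PNP1 was not run, because no probe set names that gene alone.

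Same-numbered arrays of the 2 genotypes on +P at 3 h did not deviate together (correlations of deviations from the group means -0.101, 0.017 and -0.003), so no replicate block was used. Same-numbered +P and -P arrays of a genotype at 3 h did (0.23 to 0.687). Those of the 2 genotypes on -P at 3 h had correlations of 0.16, 0.355 and 0.31. Alternatives were other sets of arrays, the replicate block, median centring, quantile normalization, a floor at 16, a filter on dim probe sets, another prior, array weights, an added 16 and each array left out.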

Additional observations from a re-analysis of the deposited data

Results flagged for a closer look

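The test of the difference between the genotype effect at 3 h and that at 1 week on +P drew attention to 6 genes, each by an adjusted p under 0.05 in limma. AT5G03350 had a gap of -6.59 ± 1.22 on the log2 scale (adjusted p = 0.0357), with -3.80 ± 0.86 at 3 h and 2.79 ± 0.86 at 1 week. AT4G26790 had a gap of -2.76 ± 0.48 (adjusted p = 0.0224), but its 3 pnp1-1 arrays at 3 h were all under 16 (6.0, 5.9 and 6.4 in pnp1-1 and 46.7, 27.7 and 43.5 in WT). The gap and its 3 h difference of -2.65 therefore have no dependable size. With levels under 16 set to 16, the 3 h difference was -1.26. The plastid gene rps14 had a gap of -2.64 ± 0.39 (adjusted p = 0.00723), with 0.71 ± 0.28 at 3 h, when both groups were dim (0.11 with levels under 16 set to 16), and 3.35 ± 0.28 at 1 week. OPCL1 had a gap of -2.06 ± 0.30 (adjusted p = 0.00554). AT1G05540 had a gap of -1.46 ± 0.17 (adjusted p = 0.00044), but all its arrays at 3 h lay near or under 16, and the 3 h difference was -0.05 with levels under 16 set to 16, so nothing is read from that gap. AT1G62480 had the opposite sign, a gap of 2.4 ± 0.40 (adjusted p = 0.019).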

How the results depend on the processing

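The count of 1686 calls on +P at 3 h was 161 with the 6 arrays fitted alone, 0 with the replicate block (3839 at an unadjusted p under 0.05), 905 where a call also needed a 2-fold change and 3061 with array weights. Leaving out 1 array gave 694 to 2172. The other settings gave 1164 to 1867, and with arrays centred on their median 41.3% of calls were higher against 55.2%. The difference between media, 0 calls, was 2 with quantile normalization, 1 with the trended and robust prior, 4 with array weights and 0 to 2 with 1 array left out. A block of same-numbered arrays within each genotype, added after seeing the data, gave 0 (2279 unadjusted). The difference between times, 31 calls, was 0 with the replicate block (2074 unadjusted), 54 with the floor at 16, 2541 with array weights and 14 to 109 with 1 array left out. The array weights did not converge and ran from 0.147 to 67.1. No named gene reversed its direction under any alternative run, but several of these settings keep the group means and so could not reverse a direction. Many named genes were also chosen for groups that do not overlap, so leaving out 1 array could not reverse them. Of 121 named genes, 102 lost their call in the 6 arrays alone, 41 in the 12 arrays at 3 h, 121 under the replicate block, 56 without WT replicate 3 and 39 without pnp1-1 replicate 2 of that medium and time. The causes were not tested. The alternatives planned for PNP1 were not run. Values under 16 limit what dim genes can show.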
